A study of Rattus norvegicus with 9 samples.

Results

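The genes described here make up the surface coat and the lateral seals of the uterine lining: the transmembrane mucins Muc1 and Muc4, the claudins Cldn3, Cldn4, Cldn7 and Cldn10, the tight junction proteins Ocln (occludin) and Tjp1 (the scaffold ZO-1), and Cdh1 (E-cadherin). They were chosen by name from a list of 10 symbols, and 9 of the 22250 rows of the expression table matched. No row was matched to Muc16, which is not analysed here. All 9 matched genes had enough reads to be among the 14229 genes tested.

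Messenger RNA was sequenced from endometrial tissue (labelled uterus) of 10-week-old female Sprague-Dawley rats, with 3 libraries in each of 3 groups. NER rats, the controls, were given saline before mating and olive oil after it. LER rats were given hydroxyurea, which lowers the supply of deoxynucleotides, as a daily gavage of 450 mg/kg over 10 days. Subcutaneous adrenaline (0.3 mg/kg per day) was added on days 4 to 10, and once mated these rats had the same oil. LER+LIG rats had both drugs and then LIG, ligustilide by the title of the series, as a daily gavage of 40 mg/kg starting on gestation day 0.5. The sources used here do not give the day of collection. Nothing in the labels says that the libraries of a group came from separate animals, and a p-value here reflects only how far such libraries scatter, which may be technical.

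The luminal epithelium of the uterus carries a coat of mucins on its apical face, and an embryo meets this coat first. Transmembrane mucins such as Muc1 and Muc4 are large glycoproteins whose extended, O-glycosylated ectodomains hinder cell contact, and in rodents both are known to be high under oestrogen and low under progesterone around implantation. Below the apical face, claudins and occludin seal the space between neighbouring cells, ZO-1 ties them to actin, and E-cadherin holds the cells together in the adherens junction.

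Start regions were taken from RefSeq (build GRCr8), which gave a window for 7 of the 9 genes, reaching from 250 bases before to 50 bases after the annotated start. Cldn4 and Cdh1 had no window. The windows printed here are those of both mucins and of the pair of claudins that lay in opposite directions in the libraries, each printed 5′ to 3′ in the direction of the gene. Capitals mark the E-box CAGGTG, searched on both strands (as CAGGTG or CACCTG), the letters to which the Snail repressors of epithelial genes are known to bind. The Muc1 window is chr2:176933500-176933799 on the plus strand, the Muc4 window chr11:81558265-81558564 on the minus strand, the Cldn3 window chr12:27346498-27346797 on the minus strand and the Cldn7 window chr10:55188420-55188719 on the plus strand.
Muc1: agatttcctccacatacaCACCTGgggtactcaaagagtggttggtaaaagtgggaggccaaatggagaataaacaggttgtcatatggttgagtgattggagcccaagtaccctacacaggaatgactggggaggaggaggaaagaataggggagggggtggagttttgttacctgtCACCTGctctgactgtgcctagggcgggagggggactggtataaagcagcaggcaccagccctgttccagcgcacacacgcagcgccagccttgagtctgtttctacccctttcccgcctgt
Muc4: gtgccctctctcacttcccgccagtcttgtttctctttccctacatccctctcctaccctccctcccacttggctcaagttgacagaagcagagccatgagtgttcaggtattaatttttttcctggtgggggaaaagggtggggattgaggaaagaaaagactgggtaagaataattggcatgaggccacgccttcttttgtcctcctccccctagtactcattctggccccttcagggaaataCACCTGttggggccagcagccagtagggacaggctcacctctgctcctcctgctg
Cldn3: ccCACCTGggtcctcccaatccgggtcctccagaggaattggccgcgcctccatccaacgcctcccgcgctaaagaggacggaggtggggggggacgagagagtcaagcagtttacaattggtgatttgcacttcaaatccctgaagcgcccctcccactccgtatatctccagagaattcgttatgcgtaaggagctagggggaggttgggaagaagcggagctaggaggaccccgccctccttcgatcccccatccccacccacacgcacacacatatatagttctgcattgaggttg
Cldn7: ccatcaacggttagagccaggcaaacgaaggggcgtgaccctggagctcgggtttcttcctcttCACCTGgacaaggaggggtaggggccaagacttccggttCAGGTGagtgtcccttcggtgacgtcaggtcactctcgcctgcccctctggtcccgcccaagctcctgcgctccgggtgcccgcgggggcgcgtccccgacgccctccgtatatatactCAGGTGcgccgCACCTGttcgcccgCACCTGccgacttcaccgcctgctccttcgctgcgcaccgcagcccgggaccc

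The E-box occurred in 5 of the 7 windows, 5 times in Cldn7, 2 times each in Muc1 and Ocln, and 1 time each in Muc4 and Cldn3. It occurred in 18.7% of all 27457 RefSeq start windows of the same length. The windows of Cldn7 and Ocln were rich in G and C, at 67.0% and 65.3%, against a median of 52.3% over all windows, while those of Muc1, Muc4 and Cldn3 lay at 54.0%, 53.0% and 58.0%. Those of Tjp1 and Cldn10 were poor in G and C, at 33.7% and 37%. Muc1 alone among the 7 held the TATA box TATAAA, which 14.3% of all windows held on either strand. Muc4 alone held the STAT palindrome TTCNNNGAA, present in 8.68% of all windows. The oestrogen response half-site GGTCA was in the windows of Ocln, Cldn7 and Cldn10 and in 40.2% of all windows, and the GC box GGGCGG in those of Muc1, Cldn7 and Cldn3 and in 34.9% of all. These matches are a description of letters, not of binding.

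Total counts ran from 13241537 to 15354085 per library. The libraries did not fall apart by group: on the first principal component of log2 CPM, with 44.4% of the variance, NER replicate 3 lay at 84.5 and LER+LIG replicates 2 and 3 at 71.3 and 74.0, while LER+LIG replicate 1 lay at -68.1 and the remaining NER and LER libraries between -37.5 and -28.7. Results are therefore given library by library, and also without these 3 libraries. Epithelium was present in every library: Epcam, a surface marker of epithelia named here as a check, lay between 183 and 393 CPM. Smooth muscle genes summed to between 11048 and 23232 CPM, so muscle RNA was in every library too. In bulk tissue, fewer cells of a type and less RNA per cell cannot be told apart.

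Per transcript length, Cldn3 was the most abundant of the 9 genes, with a mean of 155 FPKM (reads scaled for gene length and library size) over the 9 libraries. Cdh1 followed at 45.0, then Cldn4 at 31.2, Cldn7 at 27.7, Muc4 at 24.9, Tjp1 at 18.5, Muc1 at 12.8, Ocln at 9.83 and Cldn10 at 1.02 FPKM. The order of the middle genes is not firm, because each varied more between libraries than the steps between them. Muc4 spanned 0.0857 to 164 FPKM, and Cldn7 spanned 10.2 to 68.0 FPKM.

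The genes differed widely in how much they varied. The ratio of the highest to the lowest library, in CPM (reads scaled to a common library size), was 1606 for Muc4, 16.4 for Cldn10, 12.8 for Muc1, 7.15 for Cldn3, 7.03 for Cldn7, 4.12 for Cldn4, 4.06 for Cdh1, 2.80 for Ocln and 2.40 for Tjp1. In the 6 libraries other than NER replicate 3 and LER+LIG replicates 2 and 3, the order was another one: the same ratio was 15.4 for Muc4, 3.24 for Cldn4, 2.42 for Cldn7, 2.18 for Cldn3, 2.15 for Tjp1 and for Cdh1, 1.69 for Ocln, 1.67 for Cldn10 and 1.57 for Muc1.

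**Figure D1:**
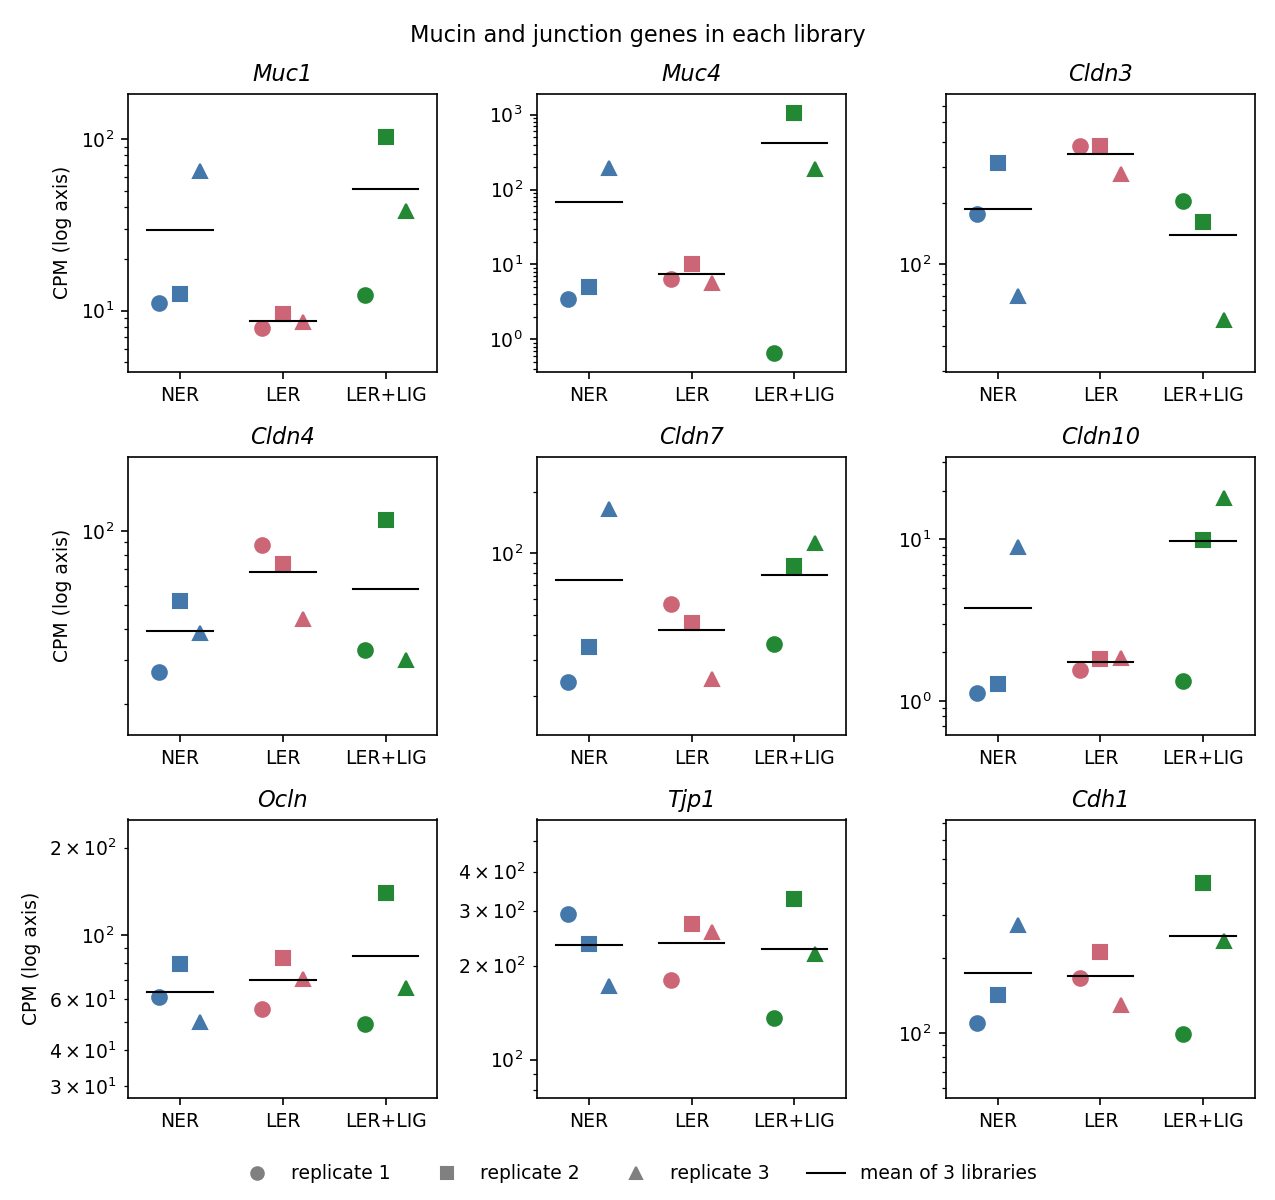
CPM of the 9 genes in each library, on log axes that differ between panels, by group, with 1 symbol per replicate and a line at the mean of 3 libraries. NER replicate 3 and LER+LIG replicates 2 and 3 lie above the other 6 libraries for Muc1, Muc4, Cldn7, Cldn10 and Cdh1 and below them for Cldn3.

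Muc1, the best known of the mucins that the uterine epithelium loses or keeps around implantation, was low in all LER libraries, at 7.94, 9.51 and 8.61 CPM. The NER libraries held 11.1, 12.5 and 64.7 CPM, and the LER+LIG libraries 12.4, 102 and 37.8 CPM. NER replicate 3 and LER+LIG replicates 2 and 3 were therefore several times higher than all others, and each LER library lay below every library of the other groups.

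Muc4, which also binds the receptor ErbB2, followed the same 3 libraries with a much wider span. NER libraries held 3.46, 5.01 and 197 CPM, LER libraries 6.32, 10.2 and 5.69 CPM, and LER+LIG libraries 0.665, 1068 and 188 CPM. The lowest and the highest of all 9 libraries were thus both in the LER+LIG group, the lowest with 8 reads and the highest with 15685. Groups overlapped in every comparison. The ratio of Muc4 to Muc1, in FPKM, stood at 3.60 and 1.71 for LER+LIG replicates 2 and 3, at 1.04 for NER replicate 3, and between 0.0184 and 0.369 in the other 6 libraries.

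Cldn3, a barrier-forming claudin, went the other way. It was highest in LER, at 383, 379 and 278 CPM, against 176, 316 and 70.1 CPM in NER and 205, 161 and 53.6 CPM in LER+LIG. Every LER+LIG library lay below every LER library, and the libraries with the lowest values were NER replicate 3 and LER+LIG replicate 3.

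Cldn4, the closest relative of Cldn3 in this list and like it a receptor for a clostridial enterotoxin, was also highest on average in LER but was not low in all LER+LIG libraries. NER libraries held 27.0, 52.2 and 38.7 CPM, LER libraries 87.5, 73.4 and 44.2 CPM, and LER+LIG libraries 33.0, 111 and 30.0 CPM. LER+LIG replicate 2 held the highest value of all and replicate 3 the second lowest.

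Cldn7, which also sits along the lateral membrane outside the tight junction, was at 23.4, 34.9 and 165 CPM in NER, 56.6, 45.9 and 24.2 CPM in LER and 36.0, 86.8 and 112 CPM in LER+LIG. NER replicate 3 was the highest. Cldn10, whose isoforms form ion-selective pores, was scarce, at 1.11, 1.27 and 8.91 CPM in NER, 1.56, 1.81 and 1.85 CPM in LER and 1.33, 9.94 and 18.1 CPM in LER+LIG. It rested on 16 to 27 reads in 6 libraries and on 123, 146 and 234 reads in NER replicate 3 and LER+LIG replicates 2 and 3. The counts do not separate its isoforms.

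Claudin make-up differed between libraries. Of the FPKM summed over 21 claudin genes, Cldn3 took 57.2%, 67.1% and 27.5% in NER, 65.8%, 65.6% and 67.1% in LER, and 55.4%, 40.6% and 26.3% in LER+LIG. Cldn7 took 4.82%, 4.69% and 40.8% in NER, 6.14%, 5.02% and 3.69% in LER, and 6.14%, 13.8% and 34.7% in LER+LIG. In NER replicate 3 and LER+LIG replicate 3 Cldn7 was the leading claudin, with Cldn3 to Cldn7 ratios of 0.673 and 0.758 on the FPKM scale. It was 2.94 in LER+LIG replicate 2 and between 9.03 and 18.2 in the other 6 libraries. Cldn4 took its largest share, 23.0%, in LER+LIG replicate 2.

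**Figure D2:**
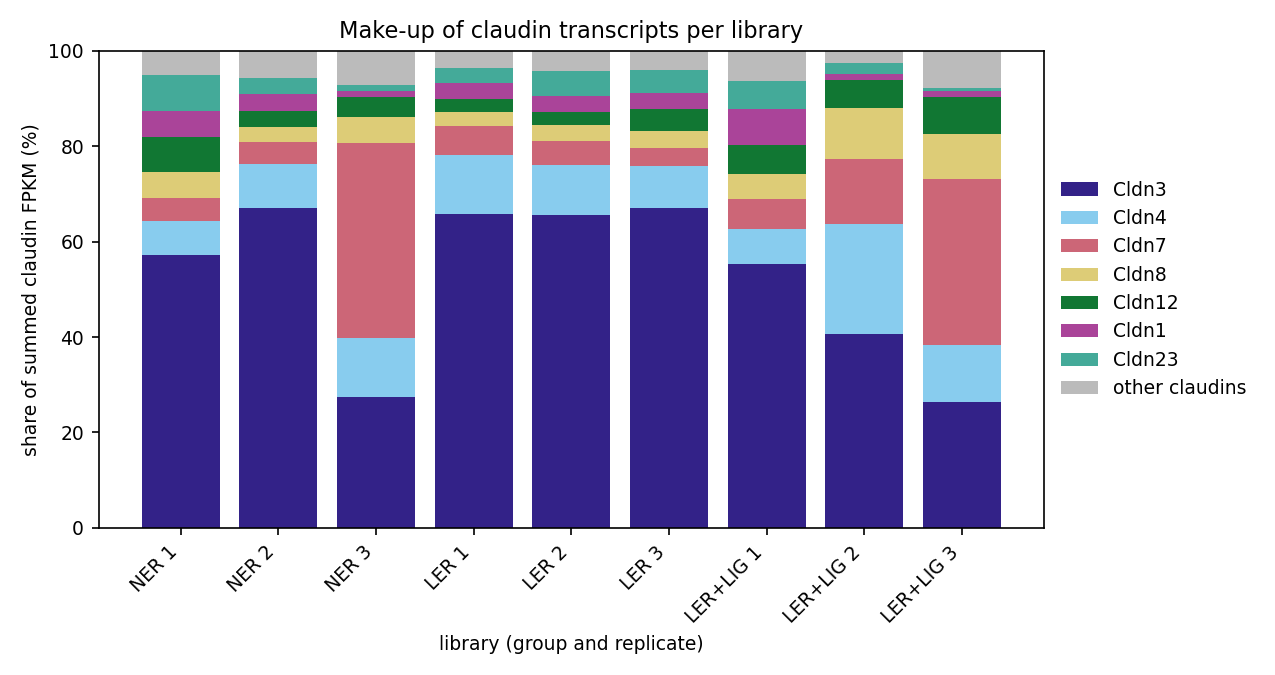
Share of the summed claudin FPKM taken by each claudin in each library, in percent, with the less abundant claudins pooled in grey. Cldn3 takes 55.4% to 67.1% in 6 libraries and 26.3% to 40.6% in NER replicate 3 and LER+LIG replicates 2 and 3, where Cldn7 takes 13.8% to 40.8%.

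Ocln, a membrane protein of the tight junction strand, was at 61.2, 79.5 and 50 CPM in NER, 55.6, 83.4 and 70.2 CPM in LER and 49.4, 139 and 65.7 CPM in LER+LIG. Tjp1 was at 293, 234 and 172 CPM in NER, 179.8, 271 and 256 CPM in LER and 136, 326 and 218 CPM in LER+LIG. For both genes LER+LIG replicate 1 was the lowest and LER+LIG replicate 2 the highest library, and NER replicate 3 was not raised. Tjp1 is also made by endothelium and stroma.

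Cdh1 was at 110.1, 142 and 272 CPM in NER, 166, 213 and 129.9 CPM in LER and 99, 402 and 234 CPM in LER+LIG. It was highest in the same 3 libraries as Muc1, but over a narrower range. As a ratio to Cdh1 in FPKM, Muc1 stood at 0.454 for NER replicate 3, at 0.483 and 0.309 for LER+LIG replicates 2 and 3, and between 0.0850 and 0.239 in the other 6 libraries. Cldn3 per Cdh1 was 0.769 for NER replicate 3, 1.20 and 0.685 for LER+LIG replicates 2 and 3, and between 4.77 and 6.91 elsewhere. Cdh1 was itself higher in those libraries, and the part of epithelial content in these ratios was not tested.

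NER replicate 3 and LER+LIG replicates 2 and 3 all lay above the other 6 libraries for 5 of the 9 genes (Muc1, Muc4, Cldn7, Cldn10 and Cdh1), below them for 1 (Cldn3), and on neither side for 3 (Cldn4, Ocln and Tjp1). Of all 14229 tested genes, 10.6% had these libraries all above and 7.76% all below the other 6. Those libraries were set apart by the data and are not a group of the study, so no test was made on them.

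LER was first set against NER, to see how both drugs, given before mating, bear on the lining. None of the 9 genes passed an adjusted p of 0.05 in edgeR's quasi-likelihood test, as was so for all 14229 genes (0% called, 0.871% at an unadjusted p under 0.05). DESeq2 called 0.0113% of the 17715 genes to which it gave an adjusted p. None of the 9 was under 0.05 unadjusted by edgeR either, and DESeq2 called none of them. Their median difference was -0.04 (log2), and that over all genes -0.02. For Muc1 the LER mean was 8.69 ± 0.785 CPM and the NER mean 29.4 ± 30.6 CPM (SD, n = 3), a log2 fold change of -1.76 ± 0.84 (SE) with unadjusted p = 0.0639 and an adjusted p of 1.00 by edgeR. It was the single gene of the 9 whose groups did not overlap, against 7.15% of all genes, 3.37% in that direction. Without NER replicate 3 its log2 fold change was -0.44, with an adjusted p of 1.00 by edgeR.

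For Muc4, the LER minus NER difference was -3.20 ± 1.97 (log2, SE), and 0.81 without NER replicate 3. Cldn3 and Cldn4 were higher in LER by 0.89 ± 0.58 and 0.80 ± 0.52, with unadjusted p = 0.16 for each by edgeR. The Cldn3 means were 347 ± 59.3 CPM for LER and 187 ± 123 CPM for NER (SD, n = 3), and its difference without NER replicate 3 was 0.50. The remaining differences were -0.81 ± 0.72 for Cldn7, -1.10 ± 0.99 for Cldn10, 0.13 ± 0.38 for Ocln, 0.02 ± 0.35 for Tjp1 and -0.04 ± 0.50 for Cdh1. Without NER replicate 3 those of Cldn7, Cldn10 and Cdh1 turned to 0.53, 0.55 and 0.43. All adjusted p-values by edgeR were 1.00. In the authors' deposited table, Muc1 is listed as down in LER with a log2 fold change of -1.77 and p = 0.00486, and none of the other 8 genes carries a call. For Muc4 the authors' table gives no fold change or p-value in this comparison, and for Cldn4 it gives 0.79 with p = 0.0238.

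LER+LIG was then set against LER, which differ in ligustilide. Here 6 of the 9 genes were higher and 3 lower. Their median difference was 0.53 (log2), against 0.07 over all genes and 54.9% of all genes above 0. Leaving out LER+LIG replicate 2 turned that median to -0.051, and it was -0.79 without NER replicate 3 and LER+LIG replicates 2 and 3. No gene was called by edgeR at an adjusted p of 0.05 (0% of 14229). DESeq2 called 1.96% of the 15293 genes to which it gave an adjusted p, but none of the 9. At an unadjusted p under 0.05 stood 3 of the 9, all higher in LER+LIG, against 12.5% of all genes in either direction and 7.21% in that direction. Groups did not overlap for 2 of the 9, Muc1 higher and Cldn3 lower, against 20.5% of all genes, 10.4% higher and 10% lower.

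Muc1 averaged 50.6 ± 46.0 CPM with LIG and 8.69 ± 0.785 CPM without it (SD, n = 3). Its log2 fold change was 2.54 ± 0.86 (SE), with unadjusted p = 0.0154 and an adjusted p of 0.36 by edgeR. DESeq2 gave it an adjusted p of 0.0561. Between 12.4 CPM in LER+LIG replicate 1 and 9.51 CPM in LER replicate 2 the gap was narrow, and without NER replicate 3 and LER+LIG replicates 2 and 3 the difference was 0.48, with an adjusted p of 0.27 by edgeR on a LER+LIG group of 1 library.

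Muc4 averaged 419 ± 569.6 CPM with LIG and 7.42 ± 2.47 CPM without it (SD, n = 3), a log2 fold change of 5.82 ± 2.21 with unadjusted p = 0.0269 and an adjusted p of 0.36 by edgeR, or 0.0707 by DESeq2. This value rested on LER+LIG replicates 2 and 3: replicate 1 lay below all LER libraries, and alone, with NER replicate 3 also left out, it gave a difference of -3.50 (adjusted p = 0.00389 by edgeR). That fit assumes that a single library varies like those of the other groups, and it called 26.7% of all genes. LER+LIG replicate 1 itself stood apart on the second principal component, at -92.4, and had the lowest scaling factor, 0.867. Leaving out LER+LIG replicate 2 alone brought the difference to 3.65.

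Cldn10 averaged 9.79 ± 8.38 CPM with LIG and 1.74 ± 0.155 CPM without it (SD, n = 3), with a log2 fold change of 2.49 ± 1.02, unadjusted p = 0.0366 and an adjusted p of 0.38 by edgeR. LER+LIG replicate 1 lay below the LER libraries here too, and by itself gave -0.42. Cldn3 averaged 140.0 ± 78.0 CPM with LIG and 347 ± 59.3 CPM without it (SD, n = 3), a log2 fold change of -1.31 ± 0.58 with unadjusted p = 0.0501 and an adjusted p of 0.40 by edgeR. It was the one claudin of the 4 whose LER+LIG libraries lay all on one side of LER. Its difference ranged from -1.72 to -0.92 when single libraries were left out, and was -0.79 with LER+LIG replicate 1 alone.

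Cldn7 and Cdh1 were higher in LER+LIG by 0.89 ± 0.72 and 0.53 ± 0.50 (log2, SE), with unadjusted p = 0.25 and 0.32 by edgeR. Cldn4, Ocln and Tjp1 differed by -0.23 ± 0.52, 0.28 ± 0.38 and -0.05 ± 0.35. With LER+LIG replicate 1 alone, Cldn7, Ocln and Cdh1 lay lower than LER by -0.26, -0.53 and -0.81, and Tjp1 by -0.82 (adjusted p = 0.0491 by edgeR, in a fit that called 26.7% of all genes). The authors' deposited table lists Muc1, Muc4 and Cldn10 as up, with log2 fold changes of 2.52, 5.79 and 2.46 and p-values of 0.000169, 0.000999 and 0.00264. The same deposited table of the authors lists Cldn3 as down, at -1.32 with a p-value of 0.00891. Whether these p-values were adjusted is not stated in that table.

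**Figure D3:**
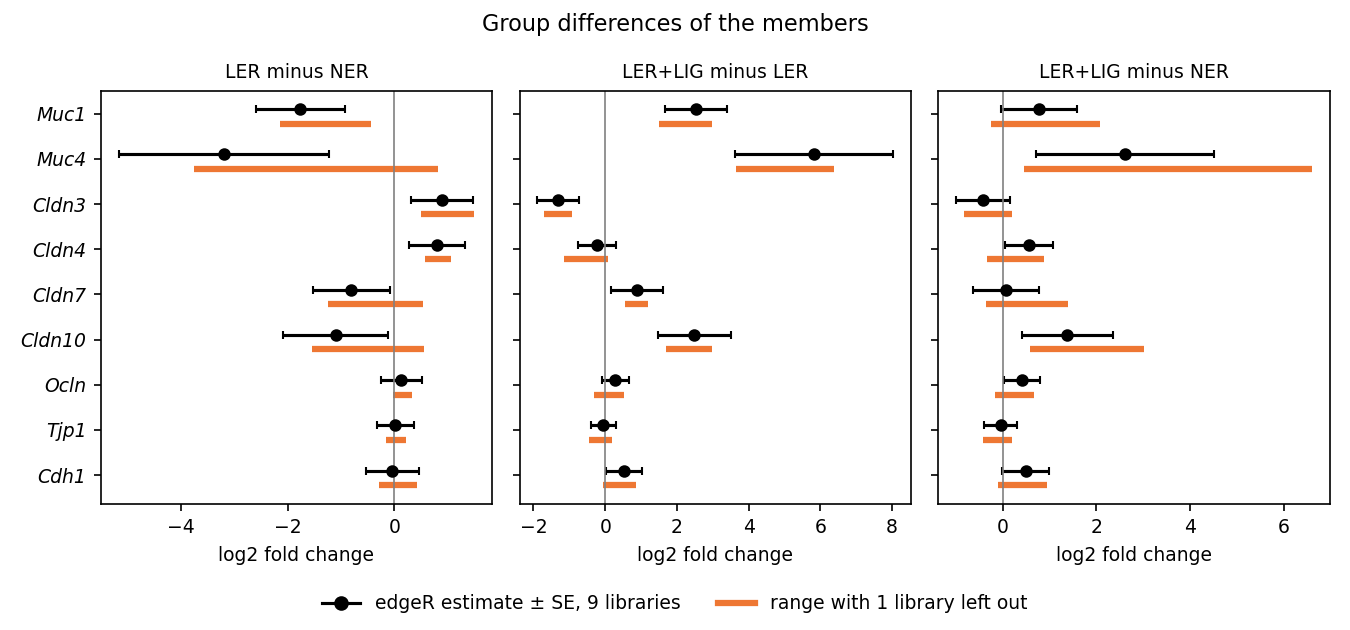
Log2 fold change of the 9 genes in the 3 comparisons, as edgeR estimates from 9 libraries with their standard errors (black), and the range when 1 library is left out (orange). For LER+LIG minus LER the ranges of Muc1 (1.51 to 2.98), Muc4 (3.65 to 6.37), Cldn3 (-1.72 to -0.92), Cldn7 (0.54 to 1.20) and Cldn10 (1.69 to 2.97) stay on one side of 0, and for LER minus NER all but those of Muc1, Cldn3 and Cldn4 cross it.

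LER+LIG was also set against NER, with the LER+LIG libraries shared between both comparisons. None of the 9 genes was under an unadjusted p of 0.05 (5.44% of all genes were), none was called by edgeR (0%) or DESeq2 (0.0981%), and the groups overlapped for all 9, whereas 8.27% of all genes had groups apart. The largest difference was that of Muc4, at 2.61 ± 1.90 (log2, SE; adjusted p = 0.88 by edgeR). Muc1 differed by 0.78 ± 0.81, Cldn10 by 1.38 ± 0.97, Cldn4 by 0.56 ± 0.52, Cdh1 by 0.49 ± 0.50, Ocln by 0.41 ± 0.38, Cldn7 by 0.07 ± 0.71, Tjp1 by -0.04 ± 0.35 and Cldn3 by -0.42 ± 0.57. Leaving out NER replicate 3 moved Muc1, Muc4 and Cldn10 to 2.08, 6.60 and 3.01, and leaving out LER+LIG replicate 2 moved Muc1 to -0.25 and Muc4 to 0.45. With LER+LIG replicate 1 alone against NER replicates 1 and 2, Muc4 differed by -2.69 and Tjp1 by -0.99, with adjusted p-values of 0.0181 and 0.0398 by edgeR. This fit too has 1 LER+LIG library, and it called 18.6% of all genes.

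Among the rest of the claudin family no gene was called. Of 19 further claudins and claudin-like genes, 10 were tested, and 4 were higher and 6 lower in LER+LIG than in LER (median -0.53). None was under an unadjusted p of 0.05 in that comparison, and none was called by edgeR or DESeq2 in any. Against NER, Cldn8 was higher in LER+LIG by 0.83 ± 0.32, at 25.3, 23.0 and 21.0 CPM in NER and 29.7, 63.9 and 29.2 CPM in LER+LIG (unadjusted p = 0.0296, adjusted p = 0.87 by edgeR). Cldn15, a pore-forming claudin, was lower by 1.24 ± 0.42 on the log2 scale, at 6.36, 11.5 and 13.0 CPM in NER and 5.48, 2.59 and 5.03 CPM in LER+LIG (unadjusted p = 0.016, adjusted p = 0.87 by edgeR). Cldn5, the claudin of endothelium, Cldn18, Cldn34d and Tmem114 were at 0 reads in every library. Endothelium markers nonetheless summed to 521 to 811 CPM in NER, 671 to 805 CPM in LER and 636 to 641 CPM in LER+LIG. Why Cldn5 had no reads was not tested.

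Other tight junction and polarity proteins were split, with 17 of 30 tested higher and 13 lower in LER+LIG than in LER (median 0.02). Cgnl1, the junctional scaffold paracingulin, was at 288, 287 and 254 CPM in LER and 217, 65.8 and 145 CPM in LER+LIG (log2 fold change -0.95 ± 0.39). Magi1, a scaffold of junctions, differed by -0.76 ± 0.33, and Mpp5 (Pals1), a polarity protein, by 0.64 ± 0.26. Their adjusted p-values by edgeR were 0.38, 0.39 and 0.37, and their groups did not overlap. In this list of 30, groups lay apart for 2 higher and 2 lower genes, against 20.5% of all genes. The E-cadherin partners of the adherens junction were likewise split, with 8 of 17 higher and 9 lower (median -0.09). Among them Nectin1, an adhesion receptor, was at 31.5, 35.5 and 26.3 CPM in LER and 21.9, 16.7 and 15.0 CPM in LER+LIG (-0.80 ± 0.25, adjusted p = 0.36 by edgeR), and Lima1, which links cadherin complexes to actin, differed by -0.54 ± 0.24.

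Desmosome genes were high in the same libraries as Muc1. All 7 tested were lower in LER than in NER (median -0.92) and 6 of 7 were higher in LER+LIG than in LER (median 1.22). None was called by edgeR or DESeq2. In the latter comparison 1 was under an unadjusted p of 0.05 by edgeR, against 12.5% of all genes. Dsc2, a desmosomal cadherin, was at 15.1, 16.7 and 208 CPM in NER, 15.3, 13.6 and 13.8 CPM in LER, and 13.9, 126 and 239 CPM in LER+LIG. Its difference between LER+LIG and LER was 3.15 ± 1.19 (adjusted p = 0.36 by edgeR), and its LER+LIG replicate 1 overlapped LER. The first median turned to 0.21 without NER replicate 3, and the second to -1.07 without NER replicate 3 and LER+LIG replicates 2 and 3.

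Of 5 other mucins tested, 4 were higher and 1 lower in LER+LIG than in LER (median 0.93), with 2 and 1 under an unadjusted p of 0.05 by edgeR. None was called by edgeR and 1 by DESeq2. Among all genes, 12.5% were under that p and DESeq2 called 1.96%. Cd164, a sialomucin of the cell surface and endosomes, was at 430.0, 466 and 479.7 CPM in LER and 679, 750.3 and 1185 CPM in LER+LIG, with no overlap (0.93 ± 0.28, unadjusted p = 0.00839, adjusted p = 0.36 by edgeR). NER libraries held 691, 480.5 and 727 CPM of it. Muc20 was at 2.24, 1.61 and 2.06 CPM in LER and 1.25, 36.6 and 13.1 CPM in LER+LIG (3.10 ± 1.03), so it too was low in LER+LIG replicate 1. Podxl (podocalyxin), an anti-adhesive sialomucin, was lower in LER+LIG, at 46.9, 62.3 and 54.5 CPM, with 78.6, 92.1 and 85.3 CPM in LER (-0.64 ± 0.24, unadjusted p = 0.0223, adjusted p = 0.36 by edgeR).

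Among enzymes listed here under mucin-type O-glycosylation, 14 of 22 tested were higher and 8 lower in LER+LIG than in LER (median 0.38). None was called by edgeR or DESeq2. By edgeR 4 were higher at an unadjusted p under 0.05, against 7.21% of all genes in that direction. Galnt7, which extends O-glycan attachment, was at 25.6, 23.6 and 27.8 CPM in LER and 38.2, 71.8 and 39.0 CPM in LER+LIG, without overlap (0.95 ± 0.31, adjusted p = 0.36 by edgeR). St6gal1, a sialyltransferase of this list that is not specific to mucin-type O-glycans, was at 49.2, 45.4 and 51.9 CPM in LER and 48.5, 248 and 192 CPM in LER+LIG (1.74 ± 0.63). The sheddases that release mucin ectodomains, and their inhibitors, showed 7 of 10 higher and 3 lower (median 0.20), with none under an unadjusted p of 0.05 and none called by edgeR or DESeq2.

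The matriptase group of membrane-bound serine proteases and protease-activated barrier genes was lower in LER than in NER for 8 of 8 tested (median -1.0) and higher in LER+LIG than in LER for 8 of 8 (median 1.30). In the latter 2 were under an unadjusted p of 0.05 by edgeR, against 7.21% of all genes in that direction. DESeq2 called 1 there, against 1.96% over all genes, and edgeR none. The first median turned to 0.24 without NER replicate 3, and the second to -0.13 without NER replicate 3 and LER+LIG replicates 2 and 3. Tmprss13, a membrane serine protease, was at 0.679, 0.804 and 1.07 CPM in LER and 6.07, 6.60 and 4.48 CPM in LER+LIG, with LER+LIG replicate 1 as high as the others, unlike the median of its list (2.74 ± 0.59, unadjusted p = 0.00117, adjusted p = 0.33 by edgeR). NER held 1.38, 3.42 and 0.796 CPM.

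Regulators of epithelial fate were mixed, with 12 of 19 higher and 7 lower in LER+LIG than in LER (median 0.34). None was called by edgeR or DESeq2. By edgeR 3 and 2 of them were under an unadjusted p of 0.05, against 12.5% of all genes. Pax8, a transcription factor of Müllerian epithelium, was at 70.4, 81.3 and 54.2 CPM in LER and 41.2, 21.1 and 19.4 CPM in LER+LIG (-1.33 ± 0.37, unadjusted p = 0.00553, adjusted p = 0.34 by edgeR). Msx2, a homeobox factor of the uterine epithelium in the mouse, was at 3.87, 3.75 and 3.56 CPM in LER and 3.99, 37.9 and 28.5 CPM in LER+LIG (2.65 ± 0.98).

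Repressors of epithelial junction genes, the factors that bind E-boxes such as those in the windows above and others of their class, were lower in LER+LIG than in LER for 8 of 9 (median -0.55). None was called by edgeR or DESeq2. By edgeR 4 were lower at an unadjusted p under 0.05, against 12.5% of all genes in either direction. Groups lay apart for 4, all lower, against 10% of all genes in that direction. Snai1 (Snail), which binds CAGGTG, was at 51.0, 75.0 and 16.9 CPM in NER, 68.2, 79.9 and 55.7 CPM in LER and 46.6, 15.3 and 12.8 CPM in LER+LIG. Snai1 was lowest in NER replicate 3 and LER+LIG replicates 2 and 3, as were 7.76% of all tested genes. Its LER+LIG minus LER difference was -1.45 ± 0.60 (unadjusted p = 0.0389, adjusted p = 0.38 by edgeR). Whether it acted on any of the windows was not tested. Tcf4, an E-box factor also active in stroma, differed by -0.67 ± 0.24. Stroma markers were themselves lower in LER+LIG than in LER for 7 of 10 (median -0.26). The stroma median was 0.026 without LER+LIG replicate 2. Without NER replicate 3 and LER+LIG replicates 2 and 3 it was 0.27, and that of the repressors -0.57. The part of stroma in the level of these factors was not tested.

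Genes with the profile most like that of a member were sought by Pearson's r of log2 CPM over the 9 libraries, among tested genes with a mean of at least 2 CPM. As the libraries fall into clusters, r over the 6 libraries other than NER replicate 3 and LER+LIG replicates 2 and 3 is given beside it, as a description that is not independent of the choice. For Muc1 these were Slc26a4 (pendrin, an anion exchanger) at r = 0.991, and 0.83 over the 6, Bace2 at 0.987 and 0.49, and Prss32 at 0.985 and -0.43. Slc26a4 was at 4.22, 5.01 and 193 CPM in NER, 2.72, 4.29 and 3.77 CPM in LER and 4.24, 497 and 107 CPM in LER+LIG. For Cldn10 they were Prom1 at 0.982 and 0.35, C3ar1 at 0.981 and 0.68, and Tnfsf13 at 0.976 and 0.69.

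For Cldn4 they were Cyb561 at 0.944 and 0.96, Rab15 at 0.941 and 0.97, and Adm2 at 0.939 and 0.96. For Cdh1 they were Tjp3 (the scaffold ZO-3) at 0.962 and 0.90, Map7 at 0.956 and 0.90, and Celsr2 at 0.955 and 0.80. Tjp3 was at 2.83, 7.35 and 49.2 CPM in NER, 8.42, 8.37 and 4.62 CPM in LER and 2.91, 73.6 and 22.3 CPM in LER+LIG, a far wider range than that of its relative Tjp1. All these genes share the same libraries and their depth.

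Cell type marker lists differed in how far they followed Muc1, Muc4, Cldn7 and Cldn10. Like these genes, the medians of simple epithelium, glandular and leukocyte markers were highest in NER replicate 3 and LER+LIG replicates 2 and 3. Other lists did not follow: against the LER mean (log2), the neutrophil median was 2.26 in LER+LIG replicate 1 and 0.57 in NER replicate 3. The stratified squamous median was -0.03 in LER+LIG replicate 2. Simple epithelium markers were lower in LER than in NER for 13 of 14 tested (median -0.79) and higher in LER+LIG than in LER for 13 of 14 (median 0.98), and none was at 0 in all libraries. The first median turned to 0.18 without NER replicate 3, and the second to -0.30 without NER replicate 3 and LER+LIG replicates 2 and 3. Their summed level was 1549 to 5764 CPM in NER, 1541 to 2075 CPM in LER and 1749 to 4564 CPM in LER+LIG, the highest being NER replicate 3. Krt19, a keratin of simple epithelia, was at 4.08, 10.6 and 393 CPM in NER, 17.8, 14.2 and 9.67 CPM in LER and 5.90, 96.4 and 131 CPM in LER+LIG. Glandular markers summed to 29.1 to 47.9 CPM in NER, 25.7 to 39.7 CPM in LER and 61.6 to 116 CPM in LER+LIG, with 2 of 3 tested higher, and Prss29 and Spink1 at 0 in every library. Stratified squamous markers, which another region of the tract would carry, summed to 13.4 to 80.7 CPM in NER, 11.9 to 18.8 CPM in LER and 15.7 to 93.9 CPM in LER+LIG, with 4 of 5 tested higher in LER+LIG than in LER and Ivl at 0 in every library.

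Leukocyte markers were lower in LER than in NER for 9 of 9 and higher in LER+LIG than in LER for 9 of 9 (median 1.08), with sums of 274 to 1233, 296 to 442 and 393 to 1110.1 CPM in NER, LER and LER+LIG. Neutrophil markers were higher in LER+LIG than in LER for 5 of 5 (median 2.07), and their sums were 39.7 to 115, 33.8 to 89.3 and 119 to 319 CPM. Stroma markers summed to 33079 to 40147, 28102 to 42946 and 8778 to 44926 CPM, the lowest in LER+LIG replicate 2, which had the most Muc1, Muc4, Cdh1 and Ocln. Smooth muscle markers were lower in LER+LIG than in LER for 8 of 9 (median -0.49), and mesothelium markers for 5 of 6 (median -0.95). Endothelium markers were lower for 7 of 9 (median -0.17), and adipocyte markers for 6 of 6 (median -3.93). The adipocyte value rested on LER replicate 1, with a sum of 1563 CPM where the other LER libraries held 175 and 193, and without it the median was 0.099. The stroma median turned to 0.026 without LER+LIG replicate 2, and the leukocyte median of LER minus NER to 0.18 without NER replicate 3. No cell type marker was called by edgeR. DESeq2 called 2 of the 5 neutrophil markers higher and 1 of the 6 mesothelium markers lower in LER+LIG than in LER. It also called 1 mesothelium marker lower in LER+LIG than in NER, and no marker of the other cell types. Over all genes DESeq2 called 1.96% for LER+LIG minus LER and 0.0981% for LER+LIG minus NER. The part of cell composition in the values of the mucins and claudins was not tested.

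Among hormone-responsive genes of the uterus, the lists differed in direction. Oestrogen-responsive genes were higher in LER+LIG than in LER for 7 of 10 (median 1.41), with 4 under an unadjusted p of 0.05 and 4 called by DESeq2 in that direction, none by edgeR. In the other direction 1 gene was under an unadjusted p of 0.05 by edgeR, Ccnd1 at -0.85 ± 0.19, and 1 gene was called by DESeq2. Progesterone-responsive genes were lower for 10 of 14 (median -0.91), with 3 under an unadjusted p of 0.05 and 2 called by DESeq2, none by edgeR. Among all genes, 12.5% were under that p by edgeR, 7.21% higher, and DESeq2 called 1.96%. Measured against the mean of LER, the median of the oestrogen list was 2.76 for NER replicate 3, 0.89 and 2.67 for LER+LIG replicates 2 and 3 and 0.10 for LER+LIG replicate 1, on the log2 scale. The median of the progesterone list in the same order was -1.22, -2.24, -1.12 and 0.16. Mitochondrially encoded transcripts, a mark of RNA quality and tissue, were higher in LER+LIG than in LER for 11 of 12 (median 0.69), at sums of 46147 to 52938 and 20655 to 37562 CPM. Without NER replicate 3 and LER+LIG replicates 2 and 3, the LER+LIG minus LER medians were 0.13 for the oestrogen list and -0.075 for the progesterone list. They turned direction for other claudins (0.31), other tight junction proteins (-0.53), O-glycosylation (-0.22), sheddases (-0.42) and fate regulators (-0.46). The medians of stratified squamous markers (-2.39) and stroma markers (0.27) turned too. Those of glandular, leukocyte and smooth muscle markers shrank to 0.21, 0.30 and -0.092. In that setting the medians were -0.57 for the junction repressors, 1.97 for neutrophil and 0.61 for mitochondrially encoded genes. The part of hormone state or RNA quality in the mucin and junction values was not tested.

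**Figure D4:**
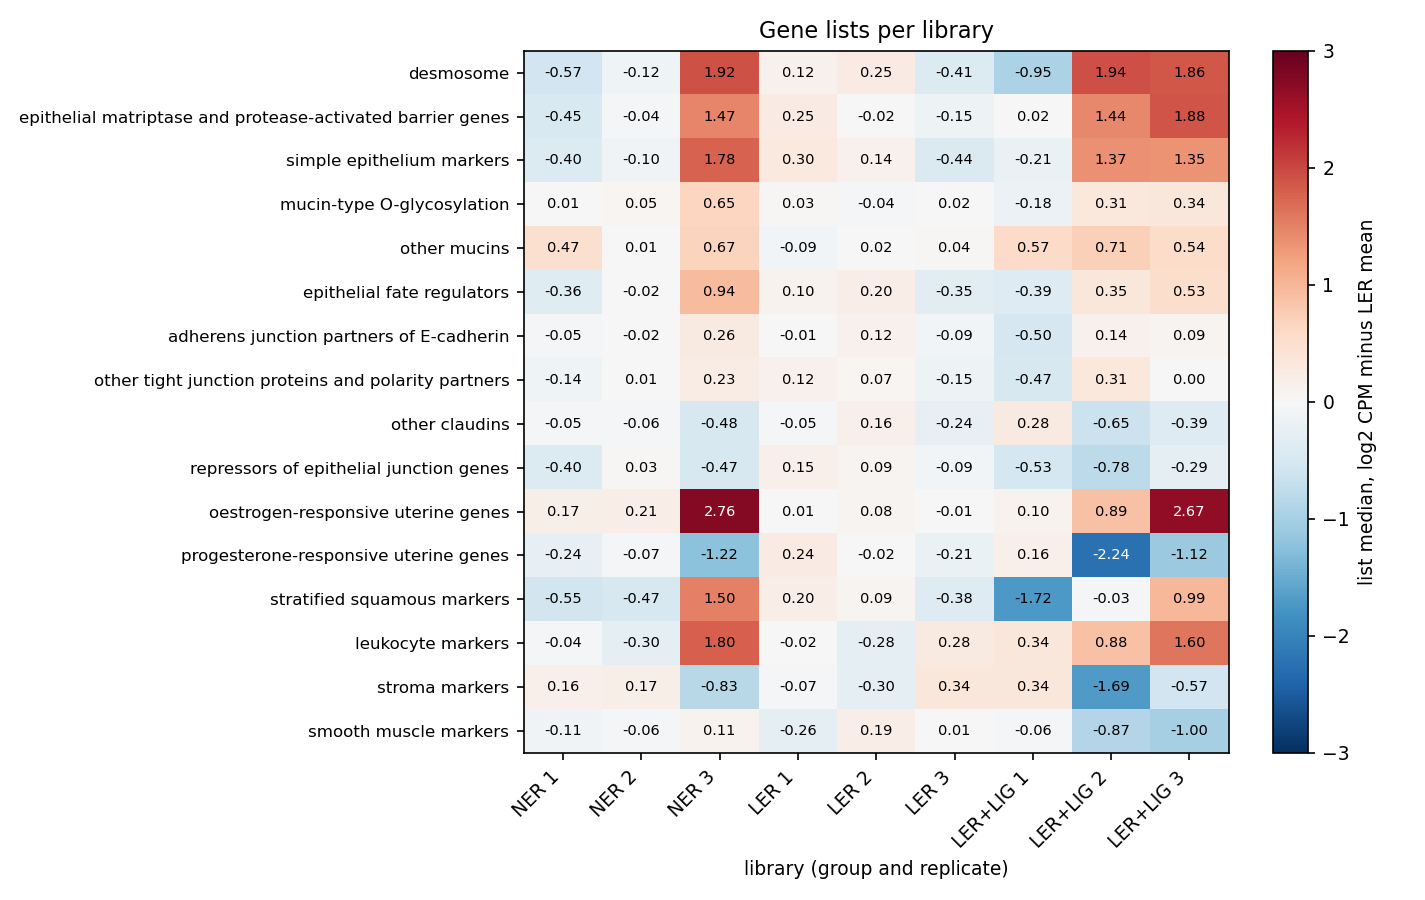
Median over the tested genes of each list, as log2 CPM minus the mean of the 3 LER libraries, for each library (columns) and list (rows), with red above and blue below LER. NER replicate 3 and LER+LIG replicates 2 and 3 are high for desmosome (1.92, 1.94 and 1.86) and simple epithelium (1.78, 1.37 and 1.35) and near LER for other tight junction proteins (0.23, 0.31 and 0.00).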

How the data were processed

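Poly-A selected RNA was sequenced in 9 libraries, grouped and numbered by their titles. The authors deposited whole-number read counts per gene and FPKM, per the file headers. The authors' deposited table of comparisons holds log2 fold changes and p-values for LER against NER and LER+LIG against LER, but the sources used here name no test for it, and no aligner, counter, strand setting or build. Overlapping and antisense genes can therefore not be separated. Every per-sample column was mapped. Rows without a symbol, at most 0.0031% of counts, were left out. Of rows sharing a symbol, the one with most counts stood for a listed gene. All such rows that passed the filter stayed in the fits and in the shares over all genes.

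Counts were fitted in R 4.3.3 with edgeR 4.0.16: filterByExpr on group, TMM scaling (factors 0.867 to 1.05), glmQLFit with robust estimation over all 9 libraries and two-sided glmQLFTest, with Benjamini-Hochberg adjustment over 14229 genes and calls under 0.05. CPM carry the TMM scaling, with a prior count of 2 on the log2 scale. DESeq2 1.42.0 was an alternative, and an adjusted p that it withheld stayed missing. Its shares over all genes are over those with an adjusted p, 17715 for LER minus NER and 15293 for each comparison with LER+LIG. The other alternatives were DESeq2 size factors, upper-quartile scaling, no filter, only 2 groups, the replicate block, and leaving out libraries. The fit was tested on counts simulated with the dispersions of these data. Over the 3 comparisons it called 0% to 2.99% of the genes changed by 1 on the log2 scale. It called 40.3% to 47.8% of those changed by 2, and 71.2% to 72.7% of those changed by 3. These are averages over 200 genes drawn from all tested, each simulated on its own, whereas the real libraries fall into clusters. They do not give the share that would be called for any gene named here. A gene that was not called may therefore still differ. All library pairs differed by more than counting noise (chi-square of 18.7 or more per degree of freedom). With 3 against 3, an exact permutation test cannot go below p = 0.1, so none was used. No batch is given in the labels.

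The members and the 23 gene lists were chosen with earlier results of these data known. They hold 313 entries, of which 290 were found by symbol, 3 through an older symbol and 20 not at all. Named beside the members were up to 3 genes per list with the smallest p (mean of at least 2 CPM) and the 3 genes most like Muc1, Cldn4, Cldn10 and Cdh1. Epcam, and the claudins at 0, were named outside that rule after their values were seen. Start windows come from RefSeq (GRCr8), and other coordinates are not given.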

Additional observations from a re-analysis of the deposited data

How the results depend on the processing

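Over 16 alternative settings, 384 of 432 values of the 9 genes kept their direction and their side of the threshold, 46 turned direction, and 2 passed the threshold in the same direction. Of the values that turned, 2 also passed the threshold, so 4 passed in all. Both DESeq2 settings, no filter and the fits of only 2 groups turned none. Genes called, 0 by edgeR in each comparison, were 2, 299 and 15 by the DESeq2 Wald test (LER minus NER, LER+LIG minus LER, LER+LIG minus NER), and 1 for LER+LIG minus LER with upper-quartile scaling and with no filter. Leaving out 1 library gave 0 to 1 for LER+LIG minus LER. Without NER replicate 3 and LER+LIG replicates 2 and 3 there were 3922 genes called for LER+LIG minus LER and 2730 for LER+LIG minus NER, with 2 members called in each (Muc4 and Tjp1), from a LER+LIG group of 1 library that was assumed to vary like the others.

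In that setting the LER minus NER differences (log2) turned to 0.81 for Muc4, 0.53 for Cldn7, 0.55 for Cldn10, -0.012 for Ocln, -0.16 for Tjp1 and 0.43 for Cdh1. Those of LER+LIG minus LER turned to -3.50 for Muc4, -0.26 for Cldn7, -0.42 for Cldn10, -0.53 for Ocln, -0.81 for Cdh1, -0.069 for Dsc2, -0.69 for Muc20 and -0.039 for St6gal1, and those of LER+LIG minus NER to -2.69 for Muc4, -0.29 for Cldn4, -0.54 for Ocln and -0.38 for Cdh1. Here the removed libraries are themselves the high ones. Upper-quartile scaling turned Cdh1, LER minus NER, to 0.0017.

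Libraries left out singly gave these ranges where the direction turned. For LER minus NER they were -3.76 to 0.81 for Muc4, -1.24 to 0.53 for Cldn7, -1.54 to 0.55 for Cldn10, -0.017 to 0.33 for Ocln, -0.16 to 0.22 for Tjp1 and -0.28 to 0.43 for Cdh1. For LER+LIG minus LER they were -1.14 to 0.078 for Cldn4, -0.30 to 0.52 for Ocln, -0.44 to 0.18 for Tjp1 and -0.051 to 0.87 for Cdh1. For LER+LIG minus NER they were -0.25 to 2.08 for Muc1, -0.82 to 0.19 for Cldn3, -0.34 to 0.88 for Cldn4, -0.35 to 1.40 for Cldn7, -0.17 to 0.67 for Ocln, -0.42 to 0.21 for Tjp1 and -0.093 to 0.94 for Cdh1.

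The replicate block turned Tjp1 and Cdh1, LER minus NER, to -0.018 and 0.032, and called no gene. The numbers do not pair the libraries: deviations of same-numbered libraries correlated between -0.19 and 0.51, those of other pairs between -0.55 and 0.54. Depth limited Muc4 in LER+LIG replicate 1, at 8 reads, and Cldn10, at 16 to 27 reads in 6 libraries.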
